A study of Homo sapiens with 12 samples.

Results

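The response to the progestin R5020 was followed in T47D-MTVL breast cancer cells that carried a control siRNA (siCt) and so kept their own CHD8, a chromatin remodeler. These are 6 of the 12 arrays of the series, 3 of siCt cells given 10 nM R5020 for 6 h and 3 of siCt cells given ethanol vehicle (EtOH) for the same time. Both groups were transfected with the same control siRNA and held for 48 h in medium without serum before the hormone was added, so the groups differ by the hormone alone as far as the labels tell. T47D-MTVL is a human luminal breast cancer line with abundant progesterone receptor and a stably integrated luciferase gene under the promoter of the mouse mammary tumour virus. It is a single derived line, and nothing in the labels says whether the arrays named as biological replicates came from separate cultures, so the p-values measure only the spread between these samples, which may be technical.

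The progesterone receptor is a hormone-activated transcription factor of the same family as the glucocorticoid, mineralocorticoid and androgen receptors, and it shares with them a palindromic DNA element made of inverted TGTTCT sites. In the breast, progesterone drives side branching and the growth of alveoli in pregnancy, partly through signals that receptor-positive luminal cells send to their neighbours. In breast cancer lines it opens the cell cycle transiently, changes metabolism and cross-talks with growth factor, JAK-STAT and estrogen receptor pathways.

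RNA was measured as log2 intensity per probe set on Affymetrix Human Gene ST arrays. A gene is given here by its brightest probe set with 1 symbol, which leaves 18418 genes. Across genes, Pearson's r between arrays of the same group ran from 0.989 to 0.996, and vehicle replicate 3 stood farthest from its group: 1459 genes lay more than 0.5 from the mean of the other vehicle arrays, against 631 and 781 for vehicle replicates 1 and 2 and 308 to 497 for the R5020 arrays. Changes are differences of mean log2 intensity, R5020 minus vehicle, with the standard error (SE) and the Benjamini-Hochberg adjusted p of limma. A gene is said to rise or fall where this adjusted p is under 0.05, and is called where it is under 0.01 and the fold is over 1.5, the limits used in the study. The number of arrays sets the precision, with a median SE of 0.13. The values are of whole cultures, in which fewer cells of a type and less RNA per cell cannot be told apart.

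The 4 marker genes of the response are given first, by array. HSD11B2 and GRPR are also among the most regular changes of these same arrays, so the markers are no independent check of the labels. S100P, a calcium-binding protein secreted by many carcinomas, was at 4.10, 4.73 and 4.74 with vehicle and at 8.27, 7.98 and 7.93 with R5020. HSD11B2, which converts cortisol to inactive cortisone, went from 3.96, 4.08 and 3.96 to 7.01, 6.75 and 6.74. TSC22D3, the leucine zipper protein GILZ that glucocorticoids also induce, went from 5.54, 5.72 and 5.46 to 7.83, 7.92 and 7.88. For all 3 the R5020 arrays lay above the vehicle arrays without overlap, which by itself was common: it held for 2903 of all genes upward (15.8%) and 3502 downward (19.0%). The fourth marker, GRPR, the receptor for gastrin-releasing peptide, was lower on each R5020 array, with 7.37, 7.65 and 7.37 for vehicle and 4.93, 4.76 and 4.78 for R5020.

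Among called genes the response was tilted upward, and more so the larger the change. Dim genes have less room to fall than to rise on the array, and what this adds to the tilt was not tested. At the call limits 1390 of 21214 probe sets passed (6.55%), 933 higher (4.40%) and 457 lower (2.15%), and as genes 865 were higher (4.70%) and 427 lower (2.32%). Genes higher with R5020 made up 67% of those over 1.5-fold, 72.8% of those over 2-fold (350 against 131), 84% of those over 3-fold (121 against 23) and 92.1% of those over 4-fold (58 against 5). The median change was 0.91 for the genes called higher and -0.83 for those called lower, and it was -0.05 over all genes (quartiles -0.21 and 0.13). Without vehicle replicate 3 the probe sets called were 1281, 865 higher and 416 lower. At the milder limit of an adjusted p under 0.05, 1579 genes rose (8.57%) and 1161 fell (6.30%), which is the background for the gene groups below. The groups were chosen with earlier results of these data known, so a share above this background describes the list and is no independent evidence of enrichment.

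**Figure D1:**
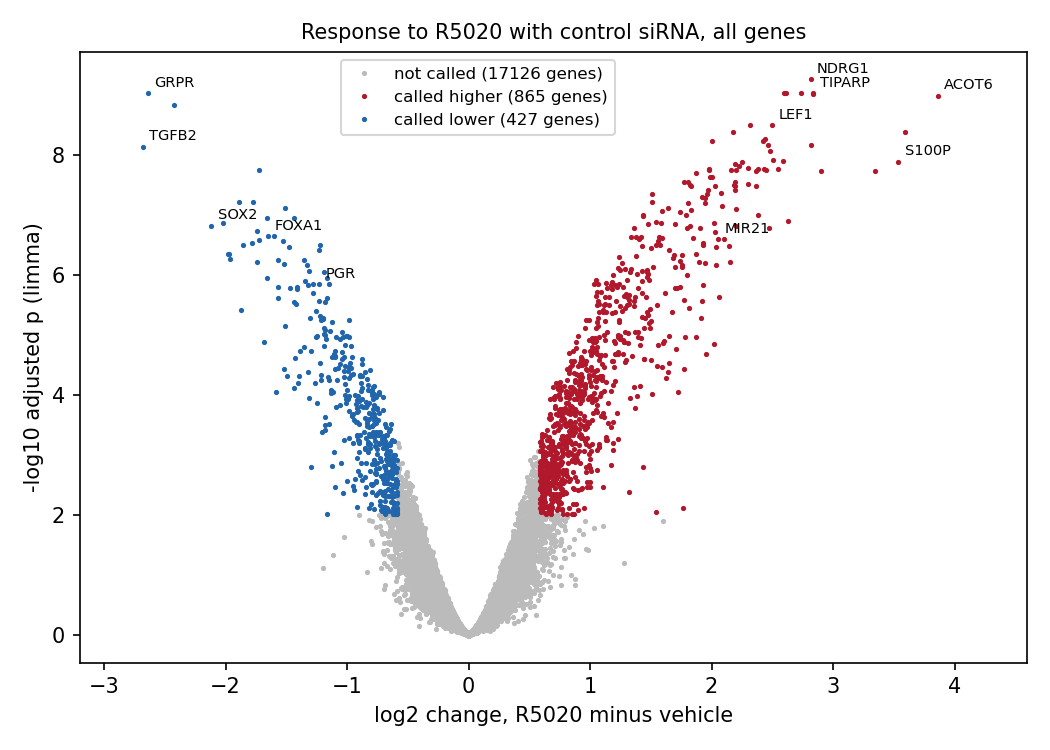
Each point is 1 of 18418 genes, with the log2 change (R5020 minus vehicle, 3 arrays each) on the horizontal axis and the negative log10 of limma's adjusted p on the vertical axis. The 865 genes called higher (red) reach a log2 change of 3.86 for ACOT6, and the 427 called lower (blue) reach -2.68 for TGFB2.

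The genes with the most regular rise included enzymes and carriers. NDRG1, a stress- and differentiation-induced gene, was at 5.70, 5.62 and 5.82 with vehicle and at 8.60, 8.54 and 8.44 with R5020, a rise of 2.81 (SE 0.10, adjusted p = 5.44e-10 from limma). MAN1A1, a Golgi mannosidase that trims N-glycans, went from 5.24, 5.21 and 5.0 to 7.75, 7.66 and 7.83 (2.60, SE 0.10). P4HA2, the catalytic subunit of a collagen prolyl hydroxylase, went from 6.04, 6.12 and 6.12 to 8.74, 8.83 and 8.56 (2.62, SE 0.11). In each of the 3 genes the lowest R5020 array was more than 2 log2 units above the highest vehicle array.

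SLC25A18, a mitochondrial glutamate carrier, rose by 2.74 (SE 0.11), and TIPARP, an ADP-ribosyltransferase that represses the aryl hydrocarbon receptor, by 2.84 (SE 0.11). SRGAP1 rose by 2.32 (SE 0.11) and NET1 by 2.44 (SE 0.12). PREX1 and VAV3 fell by 1.89 (SE 0.12) and 2.02 (SE 0.14). FAM107B, HSD11B2, LEF1, ACOT6 and TMEM63C complete the 12 most regular rises, with changes between 2.17 and 3.86.

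Among the most regular falls, TGFB2, a ligand of the TGF-beta family, was at 6.75, 6.60 and 6.61 with vehicle and at 4.23, 3.86 and 3.83 with R5020. Its signal with R5020 was 15.6% of vehicle (-2.68, SE 0.14, adjusted p = 7.25e-09 from limma). LMCD1, a LIM domain protein, went from 8.86, 8.75 and 8.85 to 6.31, 6.44 and 6.45 (-2.42, SE 0.11). ZFP36L2, which destabilises AU-rich messenger RNAs, went from 8.69, 8.70 and 8.82 to 6.99, 7.0 and 7.04, or 30.2% of vehicle. SATB1, a chromatin organiser, fell by 1.51 (SE 0.10), PLK2, a polo-like kinase, by 1.74 (SE 0.13) and LIPH, a phospholipase, by 1.65 (SE 0.11). GRPR, PXK, TRAM2 and SOX2 are the other genes of this set, which spans -1.43 to -2.68.

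**Figure D2:**
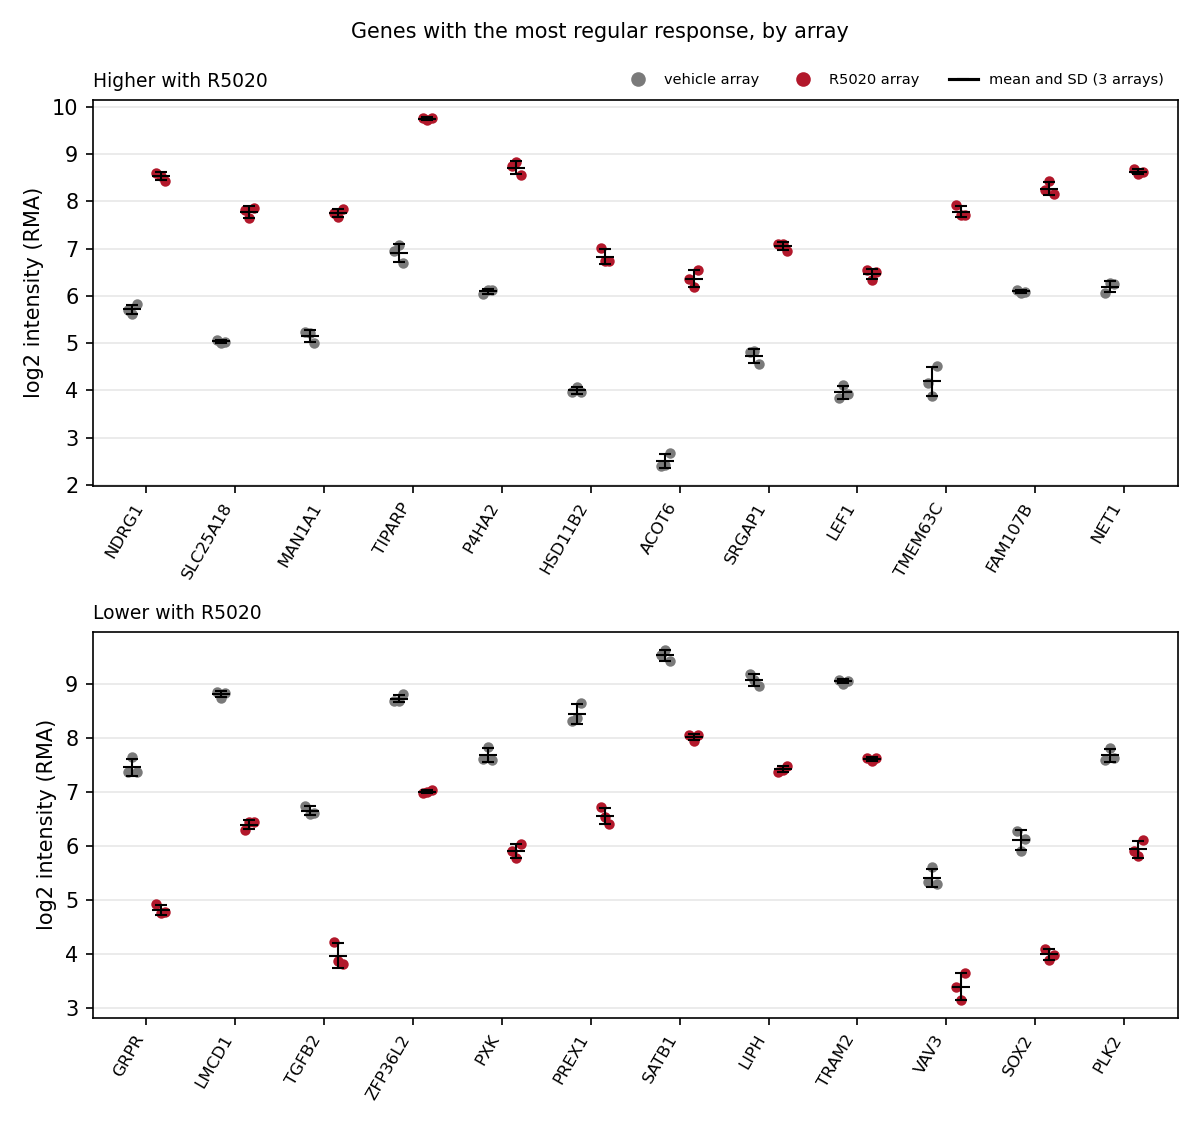
Log2 intensity of the 12 genes with the highest and the 12 with the lowest moderated t, ordered by t from left to right, with 1 point per array (grey, vehicle; red, R5020) and the mean and SD of 3 arrays in black. In each gene the 3 red points lie beyond the 3 grey points, which was a condition for choosing them.

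In a list of targets of the progesterone or glucocorticoid receptor more genes rose than fell, while the genes of the receptors themselves were lowered. The list holds the marker HSD11B2 and was chosen with earlier results of these data known, so its direction is no independent evidence. Of 28 measured targets 15 rose and 2 fell, with a median change of 0.62, against -0.05 over all genes. CEBPD, a C/EBP transcription factor, was at 6.52, 6.60 and 6.79 with vehicle and 8.25, 8.17 and 8.23 with R5020 (1.58, SE 0.12). NFE2L3, a CNC family transcription factor, rose by 1.95 (SE 0.22) and GREB1, a cofactor of the estrogen receptor, by 1.74 (SE 0.12). Several known glucocorticoid targets did not pass: KLF9 had a change of 0.21 (SE 0.12), PER1 of 0.28 (SE 0.13) and FOXO1 of 0.27 (SE 0.12). ANGPTL4, an inhibitor of lipoprotein lipase, fell by 0.95 (SE 0.16). The probe set that FKBP5, a co-chaperone of the steroid receptors, shares with LOC285847 gave a change of 3.05 (SE 0.12).

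PGR, the progesterone receptor gene itself, was at 8.50, 8.62 and 8.75 with vehicle and at 7.43, 7.37 and 7.38 with R5020, a fall of 1.23 on the log2 scale (SE 0.11, adjusted p = 1.4e-06 from limma). ESR1, the estrogen receptor alpha gene, went from 7.62, 7.65 and 7.27 to 6.58, 6.61 and 6.44 (-0.97, SE 0.12), although a second, dimmer probe set of ESR1 had a change of -0.06 (SE 0.13). NR3C1, the glucocorticoid receptor gene, went from 4.97, 5.05 and 4.74 to 4.26, 4.05 and 4.38 (-0.69, SE 0.13). In all 3 every R5020 array was below every vehicle array. NR3C2, the mineralocorticoid receptor gene, fell by 0.46 (SE 0.13), whereas the chaperones that hold these receptors, such as HSP90AA1 (0.21, SE 0.13), HSP90AB1 (0.09, SE 0.10) and FKBP4 (0.06, SE 0.13), did not pass. Of 14 measured receptors and chaperones 4 fell and PGRMC2 alone rose, a rise that did not pass without vehicle replicate 3 or R5020 replicate 3. In the list of steroid and prostaglandin metabolism 4 of 28 rose (14.3%) and 3 fell (10.7%), against 8.57% and 6.30% of all genes. SRD5A1, a steroid 5-alpha-reductase, rose by 0.94 (SE 0.15) and the estradiol-oxidising HSD17B2 by 0.72 (SE 0.14), while the prostaglandin E2 receptor gene PTGER4 fell by 1.04 (SE 0.12) and the sulfotransferase gene SULT2B1 by 1.01 (SE 0.13).

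The paracrine genes best known from the progesterone response of the normal mammary gland were not among those raised. TNFSF11, which encodes RANKL, was at 1.86, 1.83 and 1.84 with vehicle and at 1.75, 1.80 and 1.67 with R5020 (-0.10, SE 0.12), values near the bottom of the array's range. WNT4 had a change of -0.17 (SE 0.13) and CALCA, the calcitonin gene, of -0.24 (SE 0.21). In the list of 19 measured paracrine and secretory genes STAT5A and STAT5B rose and ELF5 and RUNX2 (-0.65, SE 0.11) fell, so that 2 went each way, with a median of -0.17. In simulated data with 21014 of 21214 probe sets unchanged, a log2 change of 1 passed an adjusted p of 0.05 in 80.6% of probe sets. A change of 0.5 passed in 31.8%. In the measured data 2992 probe sets passed (14.1%), which makes the adjusted limit milder, so the simulated shares do not give the power of this comparison. A gene that did not pass may still have changed.

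Genes of epithelial sodium and potassium transport, classic targets of mineralocorticoids, held some of the stronger rises. SCNN1G, the gamma subunit of the epithelial sodium channel, was at 3.37, 3.12 and 2.86 with vehicle and at 5.24, 5.01 and 4.89 with R5020 (1.93, SE 0.17). ATP1B1, the beta subunit of the sodium-potassium pump, went from 8.11, 8.25 and 8.08 to 9.95, 9.96 and 10.00 (1.82, SE 0.11). SGK1, the kinase that keeps the channel at the membrane, went from 2.07, 2.08 and 2.04 to 4.49, 4.27 and 4.04 (2.20, SE 0.13). STK39, a kinase that activates sodium-chloride cotransporters, rose by 1.55 (SE 0.19). Of 24 measured genes 8 rose and 2 fell, with a median of -0.03, and the other channel subunits SCNN1A (-0.34, SE 0.22) and SCNN1B (-0.12, SE 0.11) did not pass. The 2 falls did not hold when single arrays were left out: 0 were left without R5020 replicate 1, 2 or 3 and 1 without vehicle replicate 1, 2 or 3.

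Of 27 measured genes of gp130 receptors and JAK-STAT signalling 7 rose, 3 fell and 17 did not pass, with a median of 0.04. IL6ST, which encodes gp130, was at 7.62, 7.99 and 7.42 with vehicle and at 9.88, 9.74 and 9.98 with R5020, a rise of 2.19 (SE 0.13, adjusted p = 2.84e-08 from limma). JAK2, a tyrosine kinase bound to such receptors, went from 3.60, 3.63 and 3.56 to 5.73, 5.69 and 5.93 (2.19, SE 0.14). STAT5A, the transcription factor of the prolactin signal, went from 3.56, 3.48 and 4.15 to 5.61, 5.46 and 5.43 (1.77, SE 0.17). No R5020 value of these genes overlapped a vehicle value. LIFR and CNTFR, which pair with gp130 to bind leukemia inhibitory factor and ciliary neurotrophic factor, rose by 1.28 (SE 0.14) and 1.40 (SE 0.15). STAT3 rose by 0.85 (SE 0.10) and STAT5B by 0.65 (SE 0.12).

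The same pathway also held falls. CISH, a feedback inhibitor that STAT5 induces, went from 5.54, 5.97 and 6.04 to 4.81, 4.98 and 4.81 (-0.98, SE 0.13), and STAT6, the transcription factor of the interleukin-4 signal, fell by 0.79 (SE 0.12). The other feedback inhibitors did not pass, with SOCS3 at 0.04 (SE 0.16) and SOCS2 at -0.06 (SE 0.13), and neither did the prolactin receptor gene PRLR (-0.19, SE 0.10).

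In the ERBB family, EGFR and its ligands EGF and TGFA rose, and the receptor genes ERBB2, ERBB3 and ERBB4 fell. EGF was at 4.67, 4.91 and 4.46 with vehicle and at 6.43, 6.25 and 6.64 with R5020 (1.76, SE 0.15), and TGFA, another EGFR ligand, went from 4.83, 4.51 and 4.49 to 6.04, 5.83 and 6.25 (1.43, SE 0.14). EGFR itself went from 5.28, 5.15 and 5.57 to 6.40, 6.40 and 5.98 (0.93, SE 0.15). ERBB2, the HER2 receptor gene, went the other way, from 7.87, 7.74 and 8.05 to 6.82, 6.67 and 6.50 (-1.22, SE 0.12, adjusted p = 4.85e-06 from limma). ERBB3 fell by 0.63 (SE 0.10) and ERBB4 by 0.95 (SE 0.12), and so did GRB7, an adaptor gene that lies near ERBB2, by 0.78 (SE 0.11). ERRFI1, an inhibitor that binds the EGFR kinase, went from 5.88, 6.14 and 5.83 to 8.20, 8.09 and 8.13 (2.19, SE 0.12). Each of these changes was without overlap between the groups, and 6 rises and 4 falls were counted among 17 measured genes, of which 7 did not pass.

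Of 20 measured genes in a list of MAP kinase phosphatases and Sprouty inhibitors 2 rose, 7 fell and 11 did not pass, with a median of -0.13. SPRY2, a Sprouty protein that growth factor signals induce, was at 3.81, 4.27 and 4.17 with vehicle and at 3.38, 3.05 and 3.06 with R5020 (-0.92, SE 0.13). The phosphatase genes DUSP10 and DUSP5 both fell by 0.90 (SE 0.15 each). DUSP1, the phosphatase that glucocorticoids induce, rose by 1.32 (SE 0.12), and SPRED1 by 0.85 (SE 0.12). With dim probe sets left out 4 of the 7 falls were counted.

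**Figure D3:**
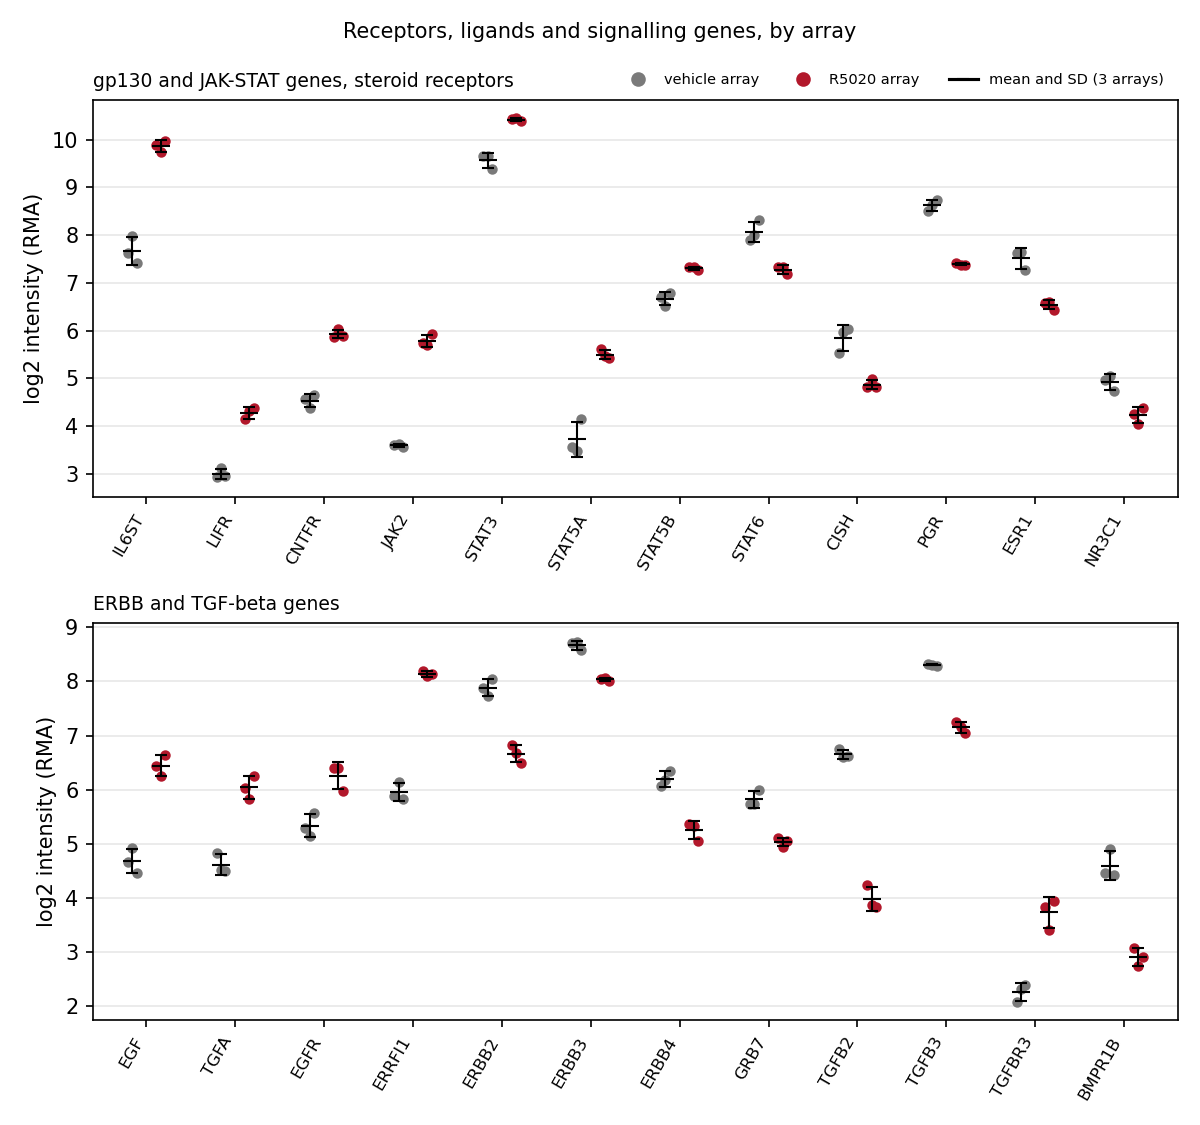
Log2 intensity per array of genes of the gp130 and JAK-STAT pathways and steroid receptors (upper panel) and of ERBB and TGF-beta genes (lower panel), grey for vehicle and red for R5020, with the mean and SD of 3 arrays in black. EGF, TGFA and EGFR lie higher with R5020, while ERBB2, ERBB3 and ERBB4 lie lower.

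Insulin-like growth factor signalling had 4 rises and 4 falls among 22 measured genes (18.2% each, against 8.57% and 6.30% of all genes). IGF1R, the receptor, rose by 1.11 (SE 0.11), and by 0.93 (SE 0.20) on a second probe set, and GRB10, an adaptor that dampens it, rose by 1.19 (SE 0.15). IGFBP5, a secreted binding protein of these growth factors, went from 11.60, 11.73 and 11.91 to 10.77, 10.76 and 10.76 (-0.98, SE 0.11), and IGFBP4 fell by 0.77 (SE 0.11). The insulin receptor substrate gene IRS1 had a change of 0.04 (SE 0.15) and IRS2 of -0.18 (SE 0.12).

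In the TGF-beta family 5 of 37 measured genes rose, 7 fell and 25 did not pass, with a median of -0.12. Beside TGFB2, the ligand gene TGFB3 was lower, at 8.32, 8.31 and 8.29 with vehicle and 7.25, 7.16 and 7.04 with R5020 (-1.16, SE 0.15). BMPR1B, a receptor for bone morphogenetic proteins, went from 4.46, 4.89 and 4.42 to 3.07, 2.74 and 2.91 (-1.69, SE 0.19). TGFBR3, a coreceptor also called betaglycan, rose from 2.07, 2.31 and 2.38 to 3.84, 3.41 and 3.95 (1.47, SE 0.15), and ACVR1, an activin and BMP receptor, by 1.36 (SE 0.13). The transducer SMAD3 fell by 0.88 (SE 0.11), and ID3 and SMAD7, which the pathway induces, fell by 0.99 (SE 0.14) and 0.73 (SE 0.12).

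In the Wnt pathway 5 of 40 measured genes rose (12.5%) and 4 fell (10%), not far from the shares over all genes of 8.57% and 6.30%. LEF1, a transcription factor that works with beta-catenin, went from 3.84, 4.12 and 3.92 to 6.54, 6.34 and 6.50 (2.50, SE 0.12, adjusted p = 3.15e-09 from limma). Its relative TCF7L1 rose by 0.95 (SE 0.16), the ligand gene WNT7B by 0.96 (SE 0.15) and the receptor gene FZD5 by 0.95 (SE 0.14). FZD4, another Frizzled receptor, fell by 0.90 (SE 0.11). In the Notch pathway, the receptor gene NOTCH2 rose by 1.43 (SE 0.11) and the ligand gene JAG1 by 1.33 (SE 0.18), and NOTCH3 fell by 1.02 (SE 0.13). Of 26 Notch genes 2 rose and 4 fell, or 2 without R5020 replicate 2.

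The list of luminal and alveolar transcription factors had the highest share of falls among the 60 gene lists examined. All 60 were chosen with earlier results of these data known, so the ranking is no independent evidence. Of 25 measured, 14 fell (56%, against 6.30% of all genes) and 6 rose, with a median of -0.58, and leaving out single arrays left 14 or 15 falls. FOXA1, the pioneer factor of the luminal lineage, was at 9.07, 9.38 and 9.37 with vehicle and at 7.65, 7.47 and 7.75 with R5020 (-1.65, SE 0.12, adjusted p = 2.27e-07 from limma). SOX2, a stem cell factor, went from 6.29, 5.91 and 6.13 to 4.10, 3.90 and 3.98 (-2.12, SE 0.15). GATA3, a luminal factor, went from 10.64, 10.72 and 10.65 to 10.00, 9.82 and 9.98 (-0.73, SE 0.10). The groups did not overlap in any of the 3.

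ELF5, the alveolar factor that progesterone is known to induce in the normal gland, fell by 1.22 (SE 0.15), with 9.66, 9.57 and 8.98 for vehicle and 8.15, 8.15 and 8.25 for R5020. TFAP2C, an AP-2 factor, fell by 1.10 (SE 0.13). Grainyhead factors of epithelial cells divided: GRHL2 went from 8.31, 8.47 and 8.32 to 9.73, 9.72 and 9.65 (1.33, SE 0.10), while GRHL3 went from 4.52, 4.26 and 4.52 to 3.29, 3.13 and 3.38 (-1.17, SE 0.11). CITED1, a coactivator found in mammary ducts, rose by 1.60 (SE 0.18). The list was put together with earlier results in which luminal genes fell in view, so its direction is no independent evidence. Of 12 luminal cell markers 0 rose and 5 fell: FOXA1, GATA3, ESR1 and PGR, already given, and the keratin KRT18 (-0.56, SE 0.14). The adhesion molecule EPCAM (0.06, SE 0.10), KRT19 (-0.09, SE 0.12) and the cadherin CDH1 (-0.19, SE 0.11) did not pass.

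Kruppel-like factors rose in 5 of 17 and fell in 0, with a median of 0.19. KLF4, a factor of epithelial differentiation, went from 4.47, 4.35 and 4.77 to 6.72, 6.51 and 6.60 (2.08, SE 0.13), and KLF15, a metabolic regulator and known glucocorticoid target, from 4.49, 3.64 and 3.99 to 5.71, 5.51 and 5.43 (1.51, SE 0.20). KLF11 rose by 0.84 (SE 0.11) and KLF5 by 0.69 (SE 0.14). Other nuclear receptors had VDR, the vitamin D receptor, at 7.07, 6.93 and 7.25 with vehicle and 8.63, 8.72 and 8.45 with R5020 (1.51, SE 0.13). NR1D1, the clock repressor REV-ERB alpha, went from 5.86, 5.78 and 6.07 to 4.97, 4.63 and 4.93 (-1.06, SE 0.13). Of 33 other nuclear receptors 2 rose and 6 fell, or 3 fell without R5020 replicate 3. Of 21 clock genes 3 rose and 6 fell, but 2 fell when vehicle replicate 2 or R5020 replicate 3 was left out. NFIL3, a clock-linked bZIP factor, rose by 0.84 (SE 0.13) and PER2 by 0.77 (SE 0.13).

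Metabolic genes formed several of the upward groups. Of 27 measured hypoxia targets 13 rose (48.1%, against 8.57% of all genes) and 3 fell, with a median of 0.41. PFKFB3, which makes the activator of phosphofructokinase, was at 6.42, 6.50 and 6.66 with vehicle and at 8.78, 8.69 and 8.60 with R5020 (2.16, SE 0.12, adjusted p = 1.77e-08 from limma). HIF1A itself rose by 0.92 (SE 0.12), the histone demethylase gene KDM4B by 1.23 (SE 0.10) and BNIP3, a mitophagy receptor gene, by 1.08 (SE 0.10). VEGFA, a defining target, had a change of 0.38 (SE 0.15) and did not pass, and EGLN3, the HIF prolyl hydroxylase 3 gene, fell by 0.84 (SE 0.13). NDRG1 and P4HA2, already given among the most regular rises, also belong to this list, which was chosen with earlier results known.

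Glucose handling had 9 rises and 1 fall among 30 genes (2 falls without vehicle replicate 1), with a median of 0.135. SLC2A1, the glucose transporter GLUT1, went from 7.20, 7.06 and 7.24 to 8.59, 8.55 and 8.49 (1.38, SE 0.10), and PDK4, the kinase that shuts pyruvate dehydrogenase, from 4.04, 3.78 and 3.92 to 6.09, 5.97 and 5.74 (2.02, SE 0.14). LDHA, lactate dehydrogenase A, was at 9.72, 9.70 and 8.74 with vehicle and at 10.44, 10.43 and 10.46 with R5020. Its rise of 1.06 (SE 0.20) leans on vehicle replicate 3 and was 0.74 without it. The number of rises was 6 without vehicle replicate 3.

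Lipid genes rose in both of their branches. In cholesterol synthesis 9 of 22 rose and 0 fell, with a median of 0.37, led by DHCR7, the last enzyme of the pathway, at 1.05 (SE 0.11). In fatty acid and triglyceride synthesis 16 of 38 rose and 2 fell, with a median of 0.21, and 12 rose without vehicle replicate 3. ACSL1, which couples long-chain fatty acids to coenzyme A, went from 7.17, 7.04 and 7.17 to 8.93, 8.87 and 8.95 (1.79, SE 0.12). SREBF1, the transcription factor of lipid synthesis, went from 6.72, 6.69 and 7.03 to 7.78, 7.71 and 7.58 (0.88, SE 0.11), while SREBF2 had a change of 0.32 (SE 0.12) that did not pass. CPT1A, which takes fatty acids into mitochondria for oxidation, went the opposite way, from 7.85, 7.85 and 8.08 to 6.99, 6.90 and 6.80 (-1.03, SE 0.13). In this list the acyl-CoA thioesterase genes ACOT1, ACOT2 and ACOT4 also rose, by 0.41 (SE 0.12), 0.69 (SE 0.12) and 0.61 (SE 0.15), against 3.86 for ACOT6.

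Sphingolipid genes had 3 rises and 8 falls among 29, or 5 falls without R5020 replicate 2 or 3. The first step lost SPTLC2, a subunit of serine palmitoyltransferase, which went from 7.69, 7.67 and 7.74 to 6.41, 6.25 and 6.22 (-1.41, SE 0.13). DEGS1, the desaturase that finishes ceramide, went from 6.18, 6.45 and 6.30 to 7.65, 7.51 and 8.10 (1.45, SE 0.15), and SGPP2, a sphingosine phosphate phosphatase gene, rose by 1.34 (SE 0.16).

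Genes for the uptake of amino acids and for polyamines rose in part and fell in 0, or in 1 each without vehicle replicate 3 (amino acids) and vehicle replicate 2 (polyamines). Of 31 amino acid transporter genes 11 rose, with a median of 0.14, among them SLC6A6, the taurine transporter, from 7.01, 6.94 and 7.19 to 8.52, 8.48 and 8.40 (1.42, SE 0.11), and SLC7A8, a light chain for neutral amino acids, by 1.09 (SE 0.10). SLC7A5, the leucine transporter LAT1, had a change of 0.28 (SE 0.10) and did not pass. Of 23 polyamine and arginine genes 6 rose, with a median of -0.05. SAT1, which acetylates polyamines for export, went from 7.61, 7.71 and 7.66 to 9.69, 9.45 and 9.78 (1.98, SE 0.11). The synthesis genes rose as well, SRM by 1.13 (SE 0.10), AMD1 by 0.96 (SE 0.15) and ODC1 by 0.53 (SE 0.14).

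Metallothioneins and zinc transporters rose in 10 of 22 and fell in 1, with a median of 0.40. Metallothionein genes are near-identical copies whose probes can bind each other's RNA, so their separate values are uncertain. Beyond them, SLC39A14, a zinc importer, went from 6.24, 6.32 and 6.17 to 7.33, 7.29 and 7.16 (1.02, SE 0.11) and SLC30A1, a zinc exporter, rose by 0.85 (SE 0.13). In the axis of the aryl hydrocarbon receptor 4 of 10 genes rose and 2 fell. CYP1B1, an estrogen hydroxylase, went from 7.71, 7.90 and 7.79 to 9.43, 9.30 and 9.29 (1.54, SE 0.11), and CYP1A1 rose by 1.10 (SE 0.14). AHR, the receptor, fell by 0.63 (SE 0.11) and its partner ARNT by 0.58 (SE 0.11).

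**Figure D4:**
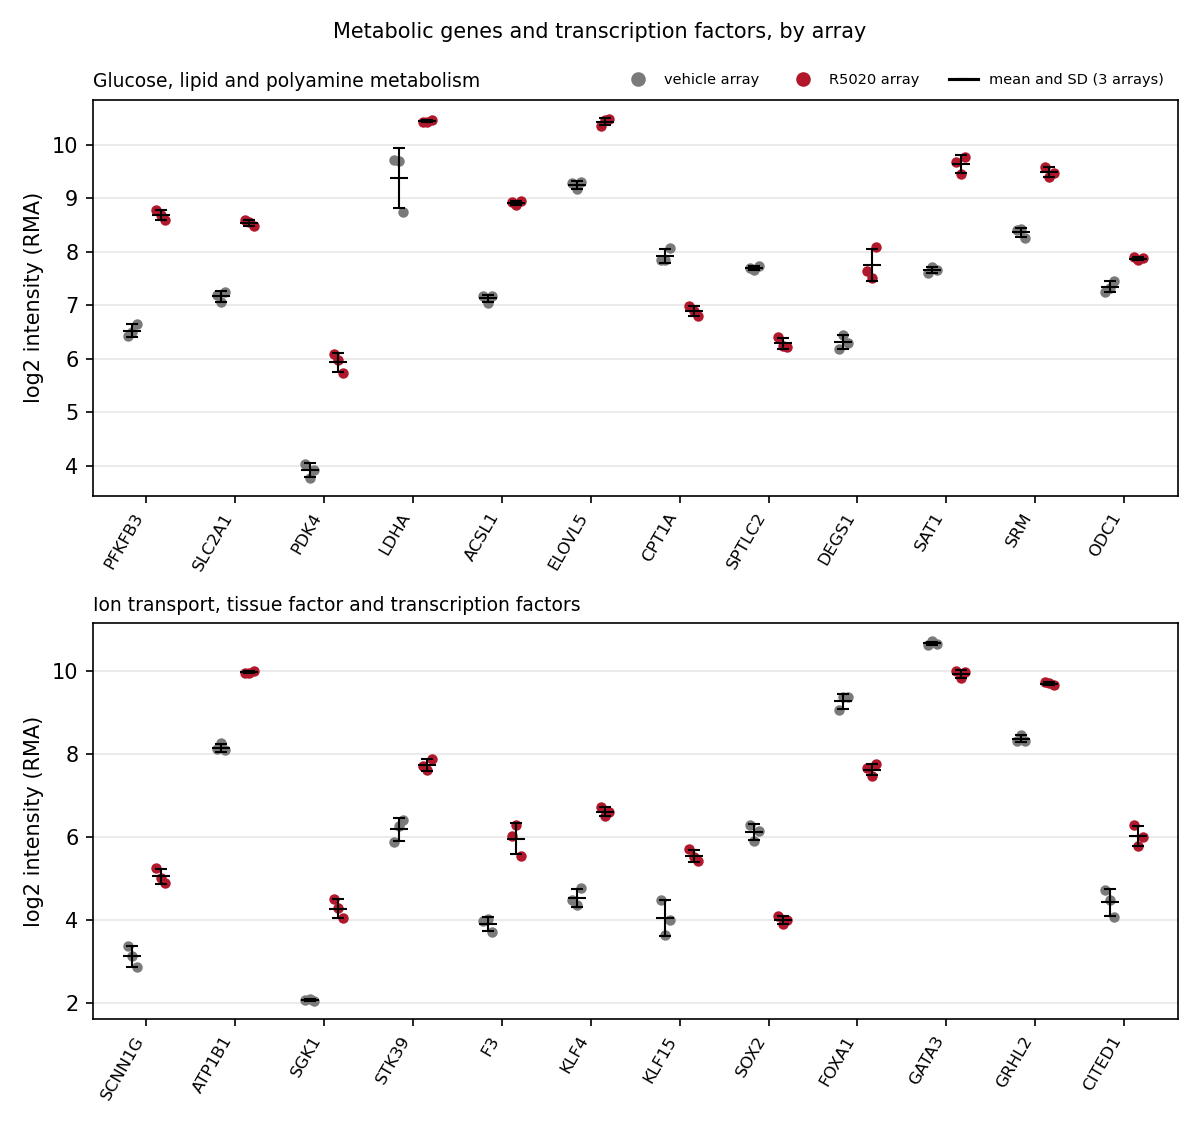
Log2 intensity per array of genes of glucose, lipid and polyamine metabolism (upper panel) and of ion transport, tissue factor (F3) and transcription factors (lower panel), grey for vehicle and red for R5020, with the mean and SD of 3 arrays in black. The vehicle bar of LDHA is wide because vehicle replicate 3 lies at 8.74, and CPT1A, SPTLC2, SOX2, FOXA1 and GATA3 are the genes shown that are lower with R5020.

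Many genes of the nucleolus that build ribosomes rose, in a list also chosen with earlier results known. Of 59 measured 27 rose (45.8%, against 8.57% of all genes) and 0 fell, with a median of 0.33, and 23 rose without vehicle replicate 3. MPHOSPH10, a component of the small-subunit processome, was far above the rest, at 5.32, 5.29 and 5.09 with vehicle and 8.18, 7.93 and 8.05 with R5020 (2.82, SE 0.14). The other rises within this list were smaller, between 0.33 for NOLC1 and 0.95 for WDR74 and LTV1. WDR74 went from 7.68, 7.43 and 7.0 to 8.34, 8.38 and 8.26 (SE 0.15), NOP58, a snoRNP core protein, rose by 0.86 (SE 0.20), and DKC1, the pseudouridine synthase dyskerin, by 0.78 (SE 0.13). Of 66 genes for the proteins of the finished cytosolic ribosome 0 rose and 1 fell, with a median of -0.02, and 2 rose without vehicle replicate 2. RPS29 was the one that fell (-0.36, SE 0.11), and it did not pass without vehicle replicate 1 or 3 or R5020 replicate 1 or 3. Of 82 subunits of oxidative phosphorylation 1 rose and 0 fell, with a median of -0.04, but 4 rose without vehicle replicate 2.

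A minority of cell cycle genes passed. CCND1, cyclin D1, was at 7.60, 7.72 and 8.0 with vehicle and at 8.88, 8.83 and 8.76 with R5020 (1.05, SE 0.12). Its partner CDK6 rose by 0.86 (SE 0.13), and the inhibitor gene CDKN2B went from 6.79, 6.72 and 6.54 to 5.87, 5.62 and 5.65 (-0.97, SE 0.11). Of 33 cyclins and related inhibitors 4 rose (12.1%) and 2 fell (6.06%). In DNA replication and nucleotide synthesis 7 of 52 rose and 0 fell, with a median of 0.20, but the rises were 4 without vehicle replicate 1 or R5020 replicate 1 and 12 with median centring. GINS2, of the replicative helicase, was at 9.36, 9.58 and 8.42 with vehicle and at 10.74, 10.71 and 10.79 with R5020. Its rise of 1.63 (SE 0.21) was 1.28 without vehicle replicate 3. Among 31 mitosis genes 1 rose and 1 fell, with a median of 0.05. Here 4 rose without vehicle replicate 2 and 0 without any other single array, and 0 fell without vehicle replicate 1 or 2 or R5020 replicate 1, 2 or 3.

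Genes of the BCL2 family rose in 8 of 25 and fell in 0, with a median of 0.13, and the risers included members of both roles. BMF, which promotes apoptosis, went from 5.22, 5.47 and 5.31 to 6.90, 6.83 and 6.73 (1.49, SE 0.13), and BCL2L11, the proapoptotic BIM, rose by 0.64 (SE 0.13). BCL2L1, whose long form BCL-XL protects cells, went from 9.53, 9.43 and 9.63 to 10.07, 10.15 and 10.15 (0.59, SE 0.10). MCL1 had a change of 0.13 (SE 0.11) and BCL2 of -0.18 (SE 0.11), neither of which passed.

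**Figure D5:**
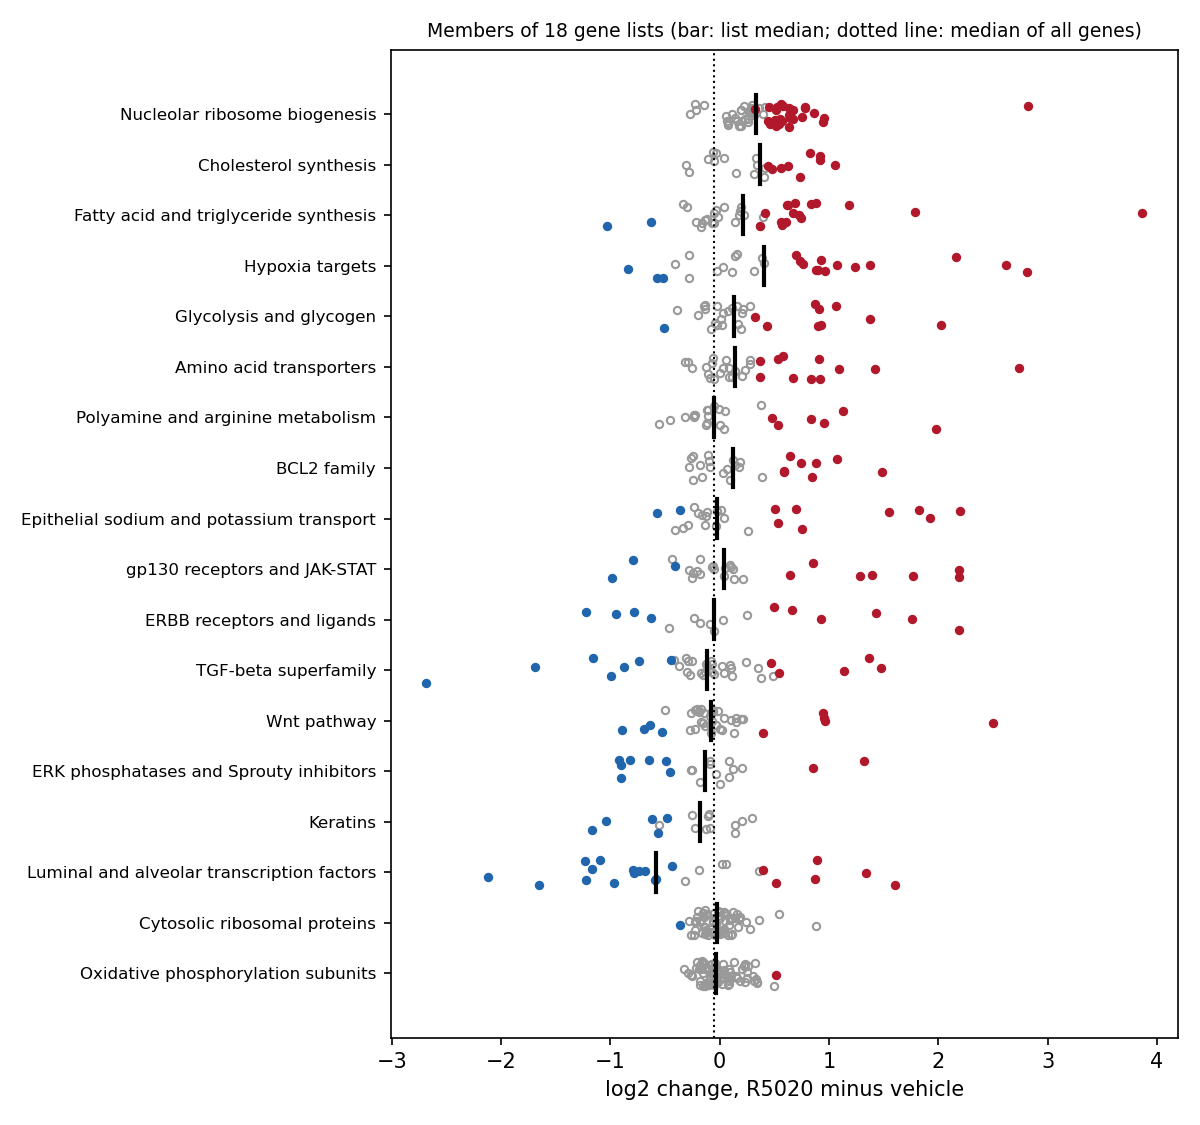
Log2 change from vehicle to R5020 of the measured members of 18 gene lists, 1 point per gene, red for genes that rose, blue for genes that fell (adjusted p under 0.05 from limma) and open for the others. Black bars are list medians, from 0.41 for hypoxia targets to -0.58 for luminal and alveolar transcription factors, and the dotted line is the median of all genes at -0.05.

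Genes for clotting, matrix and adhesion gave single large changes within lists of which most members did not pass. F3, tissue factor, which starts coagulation, was at 3.96, 4.02 and 3.70 with vehicle and at 6.02, 6.29 and 5.55 with R5020 (2.06, SE 0.19), and F2R, the thrombin receptor, rose by 1.15 (SE 0.18). Of 22 coagulation genes 6 rose (27.3%, against 8.57% of all genes) and 1 fell, or 2 fell without R5020 replicate 2. MMP15, a membrane-bound metalloproteinase, went from 4.77, 4.41 and 4.94 to 7.23, 7.16 and 7.03 (2.43, SE 0.14), and LOX, the collagen cross-linking lysyl oxidase, rose by 1.37 (SE 0.20). Of 46 integrin and matrix genes 3 rose, 9 fell (19.6%, against 6.30% of all genes) and 34 did not pass, but 5 fell without R5020 replicate 3. LAMA5, a laminin chain, had a change of -0.84 (SE 0.14) and ITGA5, the fibronectin receptor subunit, of -0.79 (SE 0.15).

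CLDN1, the tight junction protein claudin 1, went from 11.03, 11.23 and 10.83 to 9.88, 9.82 and 9.70 (-1.23, SE 0.12). Of 35 adhesion genes 4 rose and 7 fell (20%, against 6.30% of all genes), and 2 rose without vehicle replicate 3 or R5020 replicate 3. Keratins fell in 5 of 16 and rose in 0, with KRT23 going from 10.39, 10.40 and 10.46 to 9.27, 9.22 and 9.27 (-1.17, SE 0.10). In the YAP and TAZ list 6 of 25 rose, F3 among them, and 4 fell, or 2 without vehicle replicate 2 or 3 and 1 without R5020 replicate 1 or 3.

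A minority of the inflammatory genes passed, in both directions. SOD2, mitochondrial superoxide dismutase, was at 4.33, 4.48 and 4.66 with vehicle and at 6.67, 6.69 and 6.70 with R5020 (2.20, SE 0.14), and NFKBIA, the inhibitor of NF-kB, went from 7.75, 7.84 and 8.17 to 9.24, 9.14 and 9.21 (1.28, SE 0.12). BCL3, a coactivator of NF-kB, fell by 0.88 (SE 0.12). The list had 5 rises and 5 falls among 36 (13.9% each, against 8.57% and 6.30% of all genes). It had 2 rises without vehicle replicate 1 or R5020 replicate 1 or 2, and 3 falls without vehicle replicate 3. Interferon response genes fell in 8 of 36 and rose in 2, with a median of -0.17. OAS2, an antiviral synthetase, went from 6.58, 6.80 and 6.36 to 5.61, 5.41 and 5.42 (-1.10, SE 0.13) and TRIM22 rose by 1.19 (SE 0.14). The count of falls was 4 without R5020 replicate 2 or 3 and 5 without vehicle replicate 2 or 3 or R5020 replicate 1, and 1 rose when any single array other than vehicle replicate 2 was left out.

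Stress and early response lists held a few strong members. Among 34 heat shock proteins and co-chaperones 10 rose and DNAJA4 fell, with DNAJB4 at 2.63 (SE 0.18), DNAJB6 at 1.49 (SE 0.15) and DNAJB1 at 1.02 (SE 0.11), and 6 rose without vehicle replicate 1 or 3 and 5 without R5020 replicate 1 or 3. The unfolded protein and ATF4 list had 5 rises and 1 fall among 31, or 2 falls without vehicle replicate 3. Of 25 AP-1 and early response genes 4 rose and 2 fell, JUN by 0.91 (SE 0.12) upward and EGR1 by -0.49 (SE 0.13), and 1 fell without R5020 replicate 3. In the p53 list RRM2B, a ribonucleotide reductase subunit, rose by 1.0 (SE 0.19), and 4 of 25 rose and 2 fell. Of 28 mTOR and autophagy genes 6 rose and 0 fell, led by GABARAPL1 at 0.78 (SE 0.15).

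Large gene families were read for comparison. Olfactory receptors rose in 0 of 341 and fell in 4, or 8 fell without vehicle replicate 2, 2 fell without R5020 replicate 1 or 3 and 1 rose without R5020 replicate 2, with a median of -0.08. Zinc finger (ZNF) genes rose in 41 of 480 and fell in 19, with a median of 0.02. The rises were 19 to 23 without vehicle replicate 1 or 3 or R5020 replicate 1 or 3, and reached 60 with another single array left out. Solute carriers rose in 45 of 329 and fell in 28. Mitochondrial ribosomal proteins rose in 7 of 73, or 3 or 4 without 1 of the R5020 replicates 1, 2 and 3, and proteasome subunits in 2 of 31, or 0 without vehicle replicate 3 or R5020 replicate 3 and 1 without R5020 replicate 1. Of 25 estrogen receptor targets 6 rose and 4 fell, with CA12, a carbonic anhydrase, at 0.96 (SE 0.11) and MYB at -0.78 (SE 0.14). In 29 nuclear receptor coregulators PPARGC1A fell by 0.92 (SE 0.21) and LCOR rose by 0.54 (SE 0.13), counts that went to 2 falls without vehicle replicate 1, 2 rises without vehicle replicate 2 and 0 rises without R5020 replicate 1. Of 20 S100 genes S100P and S100A10 (0.54, SE 0.12) rose, of 30 interleukin receptors 2 rose and 3 fell, of 27 HOX genes HOXC13 fell by 0.80 (SE 0.11), or 3 and 2 fell without vehicle replicate 2 and 3, and of 59 histone genes 2 fell. The markers of other cell types were dim on both groups of arrays: the group means of 8 blood and endothelial markers ran from 1.17 to 2.98 with vehicle and from 1.18 to 2.72 with R5020, and those of 8 fibroblast markers from 1.42 to 5.58 and from 1.35 to 5.19. None of the first passed, and of the second COL1A1 alone did (-0.39, SE 0.11), but not without vehicle replicate 1 or 3 or R5020 replicate 2 or 3. Of 8 basal and mesenchymal markers KRT14 fell (-0.62, SE 0.15), and 2 did without vehicle replicate 2 or R5020 replicate 2 or 3. The luminal keratins KRT8 and KRT19 stood at means of 11.13 and 11.23 with vehicle and 10.90 and 11.14 with R5020.

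Some called genes lay beside one another in the genome. Of 18369 genes with a place in the RefSeq table of GRCh38.p14, 1290 were called, and 243 of these stood in 109 runs. A run holds genes next to each other among those measured and called in the same direction, and 80 runs were higher and 29 lower. With 4.70% of all genes called higher and 2.32% lower, some runs would form in any order, and their expected number was not computed. The longest run, of 6 genes, holds metallothionein genes, whose probes can bind each other's RNA. This reading was chosen after the values were seen, and overlap between neighbouring genes was not examined. S100P ended a run with MRFAP1L2 and MRFAP1, a pair of MORF-related genes. MRFAP1L2 was at 6.04, 6.53 and 6.14 with vehicle and 8.48, 8.48 and 8.65 with R5020 (2.30, SE 0.13), and MRFAP1 rose by 1.09 (SE 0.16). STAT5B, STAT5A and STAT3, described above, form another run on chromosome 17. ESR1 fell together with its neighbours CCDC170 (-0.67, SE 0.13) and DCPH1 (-1.11, SE 0.19). Near TAF5L, a subunit of the SAGA complex that rose by 1.80 (SE 0.12), ABCB10 rose by 0.80 (SE 0.14) and URB2, a ribosome biogenesis gene, by 1.37 (SE 0.13). PHACTR1 fell by 1.57 (SE 0.13) beside EDN1, the endothelin 1 gene (-0.89, SE 0.14), and HIVEP1 (-0.89, SE 0.11).

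The promoters of called genes were read for the receptor's element. RefSeq promoters of GRCh38.p14, the 250 bases before each annotated start, were searched on both strands for the palindrome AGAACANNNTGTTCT and for its 6-base arm TGTTCT, which is contained in the palindrome. The whole palindrome occurred in 1 of 35116 promoters (0.00285%) and in none of the promoters of genes measured. With at most 1 mismatch it was found in 12 promoters of genes not called and in 0 of those called. The arm occurred near 84 of 696 genes called higher that have a promoter in the table (12.1%), near 47 of 344 called lower (13.7%) and near 1651 of 13200 not called (12.5%). No match says only that these letters are not in this window. The median GC content of the promoters was 66.4% for genes called higher, 60.8% for those called lower and 62.0% for those not called.

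Among the 58 genes over 4-fold higher, 47 have a promoter in the table and 4 of them (8.51%) carry the arm. These 4 are shown, and with them STAT5A as an example from the JAK-STAT genes above, all chosen after the values were seen. Other called genes with larger changes than STAT5A hold the arm too. Each line is 60 bases on the gene's own strand, 5′ to 3′, from GRCh38.p14, and the capitals mark TGTTCT or its complement read on the gene's strand, AGAACA.
DNAJB4: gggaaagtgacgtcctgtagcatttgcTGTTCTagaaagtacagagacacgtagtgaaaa
LEF1: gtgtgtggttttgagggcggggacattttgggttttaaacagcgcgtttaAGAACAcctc
SOD2: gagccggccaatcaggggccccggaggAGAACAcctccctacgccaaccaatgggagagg
PDK4: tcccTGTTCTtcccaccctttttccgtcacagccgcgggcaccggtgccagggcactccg
STAT5A: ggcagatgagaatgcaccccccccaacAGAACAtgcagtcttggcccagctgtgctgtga
The window of DNAJB4, a co-chaperone gene (2.63, SE 0.18), lies at chr1:78004812-78004871 on the plus strand, with the arm 100 bases before the start. That of LEF1 lies at chr4:108166302-108166361 on the minus strand, 10 bases before its start, and that of SOD2 at chr6:159762405-159762464 on the minus strand, 156 bases before its start. That of PDK4 lies at chr7:95596707-95596766 on the minus strand, 246 bases before its start. That of STAT5A lies at chr17:42287315-42287374 on the plus strand, 97 and 205 bases before 2 annotated starts. The best alignment to the palindrome anywhere in the promoter has 3 mismatches in DNAJB4 and STAT5A, 4 in PDK4, and 5 in LEF1 and SOD2. In LEF1 and PDK4 the palindrome placed on the marked arm would run past the edge of the promoter. Their counts therefore belong to other sites, which are not shown.

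One microRNA gene stood out. Of 173 microRNA genes with a probe set of 1 symbol 2 rose and 4 fell, with a median of -0.06, and 1 was called each way. MIR21, the gene of a microRNA abundant in breast cancers, was at 3.42, 3.60 and 2.90 with vehicle and at 5.43, 5.41 and 5.25 with R5020 (2.06, SE 0.15, adjusted p = 2.54e-07 from limma). MIR99B went from 5.34, 5.51 and 5.77 to 4.98, 4.82 and 4.85 (-0.66, SE 0.12, adjusted p = 0.0019 from limma). The groups did not overlap in either. VMP1, the gene whose end MIR21 lies beside, had a change of 0.38 (SE 0.13) and did not pass. The probe sets read RNA of the precursor region, not the mature microRNA, whose level was not measured. Mature sequences of these 2 genes are given from RefSeq, for MIR21 the 5p arm, with the seed, bases 2 to 8, in capitals, and the 3 seeds differ.
hsa-miR-21-5p: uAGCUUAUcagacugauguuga
hsa-miR-99b-5p: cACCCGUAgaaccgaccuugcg
hsa-miR-99b-3p: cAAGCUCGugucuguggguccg
In GRCh38.p14 hsa-miR-21-5p lies at chr17:59841273-59841294, hsa-miR-99b-5p at chr19:51692618-51692639 and hsa-miR-99b-3p at chr19:51692656-51692677, all on the plus strand. Both genes were named after their values were seen.

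The arrays of cells given the siRNA against CHD8, which share no array with those above, measured the same hormone step a second time. Of the 865 genes called higher 859 (99.3%) were also higher with R5020 there and 702 (81.2%) rose, and of the 427 called lower 419 (98.1%) were lower and 341 (79.9%) fell, with 0 passing in the opposite direction. Over all genes, 1151 rose there (6.25%) and 1077 fell (5.85%). Their median change was 0.74 there against 0.91 in siCt for the higher genes, and -0.72 against -0.83 for the lower ones. Since the choice of genes rests on siCt, these medians are given side by side with no test. Tested with limma for a response that differs by siRNA, 0 of 21214 probe sets passed at an adjusted p under 0.05, with a lowest adjusted p of 0.356. At an unadjusted p under 0.05, 2027 of the 21214 passed, more than the share of 0.05 that would pass with no difference. With 3 arrays per group, 0 passing does not show that the responses of siCt and siCHD8 cells were alike. Of the genes described above, SOD2 had a change of 2.20 with siCt and 1.43 with siCHD8, MIR21 by 2.06 and 2.87, and MIR99B by -0.66 and 0.01, examples picked after their values were seen, and none of these differences passed the adjusted test.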

How the data were processed

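For 12 samples, each on its own Affymetrix Human Gene ST array, the authors deposited a single table with the log2 intensity of each probe set, background-corrected and normalized by RMA per the labels' processing notes. RMA's quantile step makes the arrays alike in overall distribution, so a shift of all genes would not be seen. Probe sets were named from the platform's annotation: of 33297 probe sets 19461 have 1 symbol, 1753 several and 12083 none, and 21214 were tested. Symbols were checked against RefSeq through Entrez numbers (19429 matched, 0 changed), and 703 probe sets share all 12 values with another.

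Groups were taken from the sample labels. Using limma 3.58.1 in R 4.3.3, 1 mean per group was fitted to all 12 arrays, so that all groups share 1 estimate of the spread with 8 residual degrees of freedom, and siCt R5020 was compared with siCt EtOH. P-values were adjusted by Benjamini-Hochberg over all 21214 probe sets. A gene is its brightest probe set with 1 symbol. The script was tested on simulated data. Figures, promoter and neighbour readings used Python 3.11.15, numpy 2.4.6, pandas 2.3.3 and matplotlib 3.10.9, with RefSeq tables of GRCh38.p14.

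The 4 markers, the 12 highest and 12 lowest moderated t among called, non-overlapping 1-symbol probe sets, and up to 4 members with the largest change per list were named by rule. The comparison and the lists were chosen with earlier results of these data known. Other members named, the neighbour runs, the 6-base windows and the microRNAs were chosen after their values were seen. Alternatives covered the scaling, the filter on dim probe sets, the probe sets used, the variance model, array weights, the arrays in the fit, the replicate block, the call limits and leaving out each array.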

Additional observations from a re-analysis of the deposited data

Results flagged for a closer look

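Probe sets without a gene symbol were left out of the comparisons above, and some of them responded. Of 12083 such probe sets 114 met the call limits in a limma fit that also held the named probe sets (0.943%), 86 higher and 28 lower with R5020, with changes from -2.28 to 3.55 and a median of 1.04 for the higher ones. They are listed here because they lie outside the genes described, and what they measure was not examined.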

How the results depend on the processing

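The count of 1390 called probe sets (933 higher, 457 lower) stayed within 1.5 times of itself under most alternatives. Median centring gave 1473 (1096 and 377), quantile normalization 1323 (835 and 488) and unadjusted p-values 1620 (1075 and 545). The siCt arrays alone with the replicate block gave 925 calls, 280 of them lower, a fold over 2 gave 512 (372 and 140), and a test against a fold of 1.5 gave 415 (306 and 109), settings that by construction use fewer degrees of freedom or a stricter limit. Leaving out single arrays gave 1128 to 1402 calls, 731 to 963 higher and 354 to 450 lower. The replicate block gave 1335 calls (902 and 433), and since deviations of same-numbered samples correlated at -0.12, -0.25 and -0.14, the numbers were not taken to pair the samples. The difference between the responses of siCt and siCHD8 cells found 0 probe sets in every setting. Named genes were followed at an adjusted p under 0.05 from limma, not at the call limits. Of 211, 190 kept their direction and stayed under 0.05 in all settings, and 0 turned direction. The other 21 did not pass in at least 1 setting, among them COL1A1, KRT18, RPS29, DDIT4, LCOR, S100A10 and SERPINA3. Of 120 list counts 56 moved by over 1.5 times in at least 1 setting, mostly small ones. Steroid receptors that fell went from 4 to 2 and coagulation genes that rose from 6 to 3 with dim probe sets left out. The number of arrays limits the precision.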
